A study of Mus musculus with 15 samples.

Results

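The 9 endothelial and VEGF receptor genes described here are Flt1, Kdr, Tek, Tie1, Eng, Cdh5, Pecam1, Vwf and Btnl9. They were taken by symbol, and all 9 were among the 12391 named genes with a transcript in every library's table. Their 24 listed transcripts were summed to gene levels, and all 9 genes passed the filter on low values (at least 0.5 FPKM in at least 5 libraries), as did 21 of the 24 transcripts. RNA came from heart tissue of male C57BL/6 mice, was depleted of rRNA and sequenced. The 15 libraries formed 3 groups of 5 mice: AngII+QDG (AngII mice that were also treated with QDG, a treatment known here only by that abbreviation), AngII (mice given AngII by infusion; the abbreviation stands for angiotensin II, which constricts vessels and raises blood pressure) and Control. The AngII+QDG mice therefore carried AngII too, and the sources used here give no dose or duration of either agent, no age of the mice and no treatment of the Control mice. The study's stated aim was to find genes and pathways that differ between these groups.

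Endothelial cells line the inside of blood vessels, and in the heart most of them form the capillaries that run beside the muscle cells. They respond to vascular endothelial growth factor (VEGF) through tyrosine kinase receptors, of which Kdr carries most of the signal for vessel growth and Flt1 binds the ligand tightly and signals weakly. A shortened Flt1 transcript, made by reading on from a coding exon into the intron after it, encodes a soluble receptor that binds VEGF outside the cell. Tek is the receptor for angiopoietins and Tie1 its partner receptor, endoglin (Eng) is a co-receptor for BMP ligands, Cdh5 and Pecam1 hold neighbouring endothelial cells together, Vwf is the clotting factor that endothelial cells store and release, and Btnl9 is a butyrophilin-like surface protein found in capillary endothelium. On GRCm38 (GENCODE M21) the genes lie at chr5:147561604-147726011 (Flt1), chr5:75932827-75978458 (Kdr), chr4:94739289-94874976 (Tek), chr4:118471191-118490061 (Tie1), chr2:32646595-32682669 (Eng), chr8:104101625-104144511 (Cdh5), chr11:106654217-106750628 (Pecam1), chr6:125546774-125686679 (Vwf) and chr11:49165585-49187159 (Btnl9).

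Of the Flt1 transcripts 2 were listed, and the place where they part is shown because the level of each is given below. Flt1-202, with 30 exons and 3999 coding nt, encodes the full receptor, and Flt1-203, with 13 exons and 2064 coding nt, shares its first 1972 coding nt and then has 92 coding nt of its own. The last 30 shared coding bases are in lower case and the bases after them in capitals, on the minus strand of GRCm38. The capitals of Flt1-203 lie at chr5:147639130-147639224, run on from the shared exon without a splice and end in its stop codon TAA. Those of Flt1-202 lie at chr5:147634404-147634523, in its next exon, and are the first 120 of its 2027 further coding bases.
Flt1-203: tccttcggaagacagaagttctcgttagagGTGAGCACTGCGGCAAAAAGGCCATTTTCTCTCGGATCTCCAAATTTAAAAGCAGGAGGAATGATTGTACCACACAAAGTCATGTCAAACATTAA
Flt1-202: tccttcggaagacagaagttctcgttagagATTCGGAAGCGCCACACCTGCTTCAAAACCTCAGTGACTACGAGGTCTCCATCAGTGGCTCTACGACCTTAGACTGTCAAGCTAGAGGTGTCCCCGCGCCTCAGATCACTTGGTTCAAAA

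The same kind of split separates the main Eng transcripts, of which Eng-201 was the higher in AngII+QDG 4, Control 2 and Control 5 and Eng-202 in the other 12 hearts. Eng-202 and Eng-201 share their first 1837 coding nt, after which Eng-202 has 86 and Eng-201 has 122 coding nt of its own. The capitals lie on the plus strand at chr2:32681298-32681386 for Eng-202, continuous with the shared exon, and at chr2:32681437-32681561 for Eng-201, in the next exon, and each run ends in its stop codon.
Eng-202: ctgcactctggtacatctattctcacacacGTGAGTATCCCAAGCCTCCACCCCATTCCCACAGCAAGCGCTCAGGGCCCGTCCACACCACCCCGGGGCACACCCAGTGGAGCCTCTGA
Eng-201: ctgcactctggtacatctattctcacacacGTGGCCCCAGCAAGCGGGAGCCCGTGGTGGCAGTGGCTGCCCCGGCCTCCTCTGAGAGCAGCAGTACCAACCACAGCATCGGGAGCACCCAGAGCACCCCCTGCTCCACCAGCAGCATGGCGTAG

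The promoters of the receptor genes that were higher in AngII+QDG hearts than in Control hearts are shown as the 250 bases before the RefSeq start (GRCm38.p6). Capitals mark CCGGAA and CAGGAA, forms of the ETS motif, and GGGCGG, the GC box, on either strand, and no marked match overlaps another. The windows are chr5:147726012-147726261 on the minus strand for Flt1, chr5:75978456-75978705 on the minus strand for Kdr, and chr4:94739039-94739288 on the plus strand for Tek. Just after the Tek window starts Tek-203, the lesser Tek transcript in AngII+QDG hearts. The main one there, Tek-201, starts further on, at chr4:94739518.
Flt1: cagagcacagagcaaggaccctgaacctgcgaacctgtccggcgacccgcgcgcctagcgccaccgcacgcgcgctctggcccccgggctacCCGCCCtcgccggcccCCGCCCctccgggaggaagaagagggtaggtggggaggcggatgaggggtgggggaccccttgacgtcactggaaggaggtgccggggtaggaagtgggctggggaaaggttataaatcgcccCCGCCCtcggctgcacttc
Kdr: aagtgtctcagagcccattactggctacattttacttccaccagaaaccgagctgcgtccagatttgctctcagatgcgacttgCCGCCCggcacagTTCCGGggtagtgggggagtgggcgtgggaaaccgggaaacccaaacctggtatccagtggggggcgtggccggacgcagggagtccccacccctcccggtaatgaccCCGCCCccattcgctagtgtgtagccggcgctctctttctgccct
Tek: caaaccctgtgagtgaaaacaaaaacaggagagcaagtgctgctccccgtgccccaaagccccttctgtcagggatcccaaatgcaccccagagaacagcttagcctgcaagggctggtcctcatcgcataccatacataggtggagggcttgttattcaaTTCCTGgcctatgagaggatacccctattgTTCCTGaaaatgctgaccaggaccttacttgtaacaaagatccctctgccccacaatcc

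Windows were matched for 6 members, the other 3 of these being Tie1, Eng and Btnl9. Of 32817 distinct windows of the same length, 12.02% held CCGGAA, 25.7% held CAGGAA and 32.7% held GGGCGG. Among the members CCGGAA was found in Kdr alone, CAGGAA in Tek, Tie1 and Btnl9, and GGGCGG in Flt1 (3 matches) and Kdr (2 matches). The GATA motif AGATAA was in none of the 6 windows and in 9.99% of all. The hypoxia motif ACGTG was also in none of the 6 and in 16.6% of all, the forkhead motif GTAAACA in none and 3.16%, and the AP-1 motif TGANTCA in none and 6.75%, all searched on both strands.

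The libraries differed in more than their treatment. Low FPKM values (fragments per kilobase of transcript, scaled to the size of the library) fell on whole steps, which gave depths of 51600000 to 78300000 fragments, if 1 step is 1 fragment. The mean log2 level of 2189 protein-coding transcripts under 1000 nt, minus that of 5991 protein-coding transcripts of 3000 nt or more, came to 0.832 ± 0.096 log2 units in AngII+QDG libraries, 0.870 ± 0.070 in AngII libraries and 1.24 ± 0.19 in Control libraries (SD, n = 5 each), so that long transcripts, which include most member transcripts, were relatively lower in Control. This short-against-long balance was highest in Control 3 and Control 5 (1.46 and 1.42 log2 units) and, among Control libraries, lowest in Control 4 (1.02). Transcripts listed at 0 made up 4.86 to 6.71% in AngII+QDG libraries, 4.96 to 7.10% in AngII libraries and 6.93 to 20.6% in Control libraries, with the highest share in Control 5. Fold changes below are limma estimates on log2(FPKM + 1), which understates the change of low genes, and a call is a Benjamini-Hochberg adjusted p under 0.05 over all 12267 genes tested. P-values measure the spread between these libraries, 1 per mouse, in which differences between mice and between library preparations cannot be told apart.

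The median of all tested genes lay 0.20 log2 units higher in AngII than in Control, 0.18 higher in AngII+QDG than in Control, and 0.02 lower in AngII+QDG than in AngII. In AngII against Control, 1457 genes were called higher and 181 lower. With quantile normalization the split was 406 higher and 413 lower, and with each library centred on its median 361 higher and 715 lower. For AngII+QDG against Control the splits were 1968 higher and 406 lower, 983 and 999 with quantile normalization, and 791 and 1625 with median centring.

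**Figure D1:**
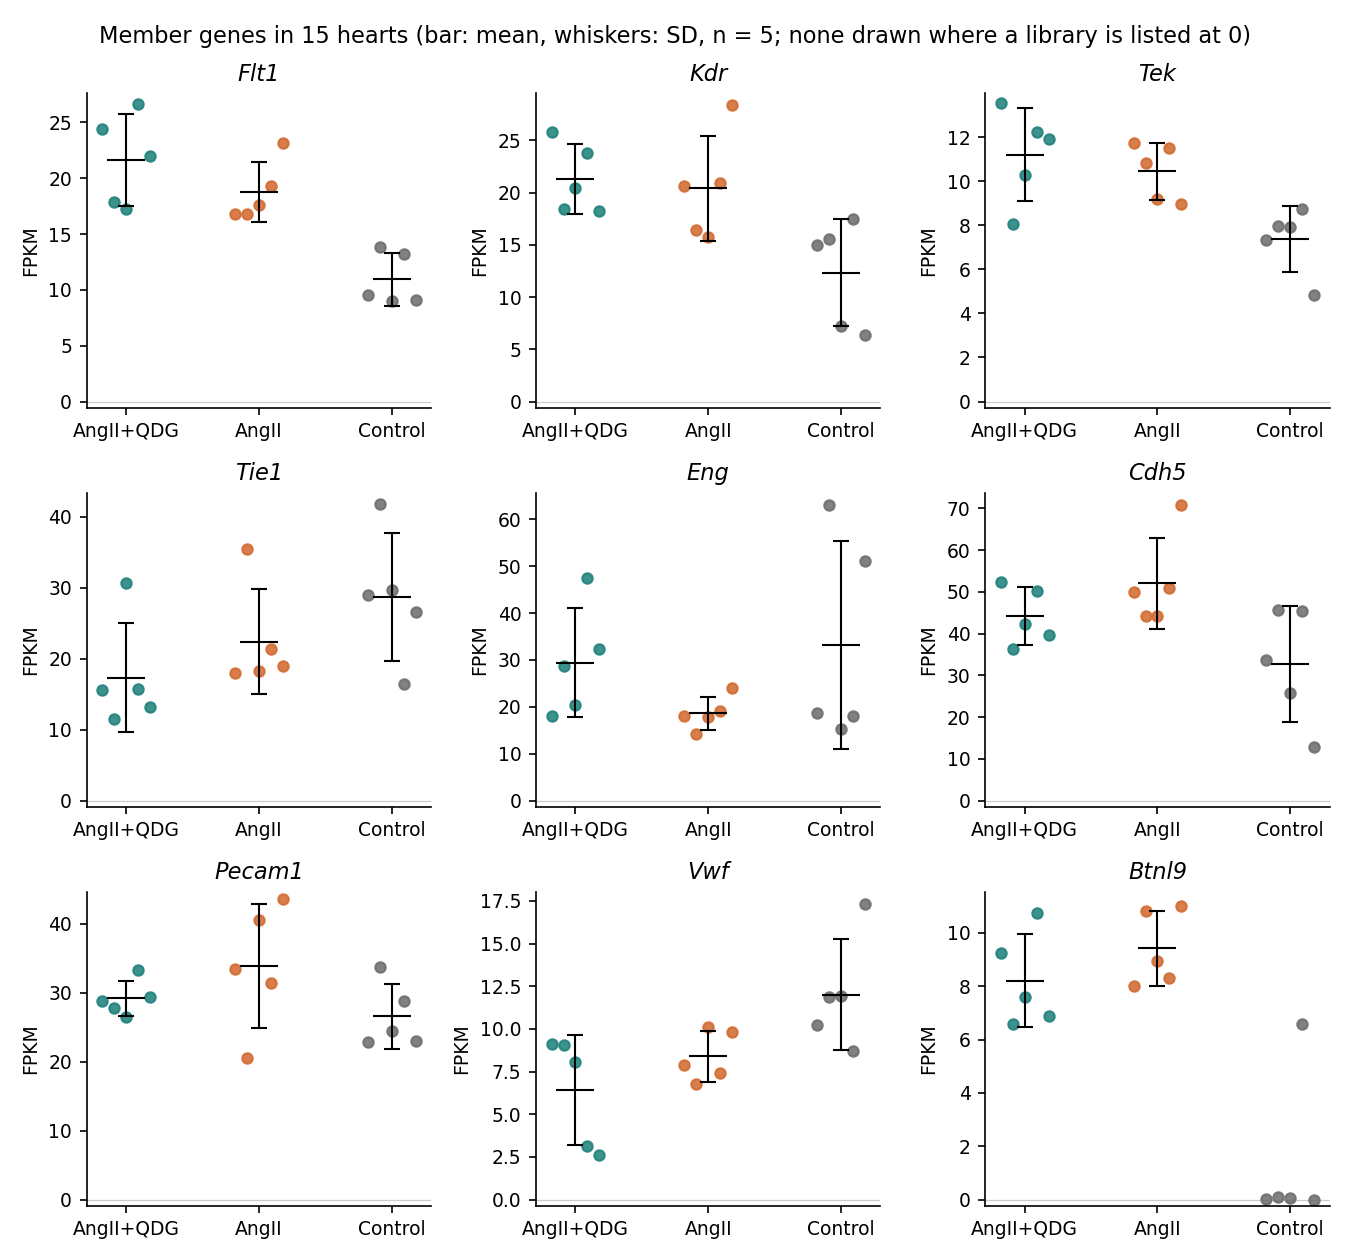
Gene level (FPKM, y axis, from 0) of the 9 members in each heart, with 1 point per library and groups from left to right AngII+QDG, AngII and Control; bars give the mean and whiskers the SD of 5 hearts, and none are drawn for Btnl9 in Control, where 1 library is listed at 0. Flt1 and Btnl9 points of both AngII groups lie above all Control points, while Tie1, Eng, Pecam1 and Vwf points overlap between all 3 groups.

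Among the VEGF receptors, Flt1 was higher in both AngII groups than in Control. Its level was 24.4, 17.9, 17.2, 26.7 and 22.0 FPKM in AngII+QDG hearts 1 to 5, 16.8, 16.8, 17.6, 19.3 and 23.2 FPKM in AngII hearts, and 9.57, 13.8, 9.01, 13.2 and 9.07 FPKM in Control hearts. Every heart of both AngII groups lay above the highest Control heart, and the AngII+QDG and AngII hearts overlapped. Flt1 rose by 0.74 ± 0.16 log2 units in AngII against Control (SE; limma, adjusted p = 0.0165), which is 0.54 above the median of all genes, and by 0.93 ± 0.16 in AngII+QDG against Control (limma, adjusted p = 0.00317). In bulk heart tissue, fewer cells of a type and less RNA per cell cannot be told apart. The rise in AngII against Control was called under quantile and median scaling and without any single library, and the call ended without Control 3 and Control 5 (0.59, limma adjusted p = 0.0812), after removal of each library's length trend (0.36, limma adjusted p = 0.106) and with the balance as a covariate (0.37, limma adjusted p = 0.904). The covariate also ended the call in AngII+QDG against Control (0.53, limma adjusted p = 0.631).

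Kdr, the main signalling receptor for VEGF, had 25.8, 18.4, 20.4, 23.7 and 18.2 FPKM in AngII+QDG hearts, 20.6, 16.4, 15.7, 20.9 and 28.4 FPKM in AngII hearts, and 14.96, 15.5, 7.25, 17.4 and 6.34 FPKM in Control hearts. Control 3 and Control 5 were far below the other 3 Control hearts, the AngII+QDG hearts all lay above the Control hearts, and the AngII and Control hearts overlapped. The call was made in AngII+QDG against Control (0.83 ± 0.25 log2 units, limma adjusted p = 0.0327) and missed in AngII against Control (0.76 ± 0.25, limma adjusted p = 0.0592), and the first was lost without AngII+QDG 1, 3 or 4 or Control 3 or 5 (limma adjusted p = 0.0528 to 0.0816). Without Control 3 and Control 5 the estimates were 0.38 and 0.31 (limma adjusted p = 0.172 and 0.327), and with the balance as a covariate both were below 0 (-0.24 and -0.22, limma adjusted p = 0.827 and 0.934). Across the 15 libraries, after centring each group, Kdr followed the short-against-long balance more closely than any other member (Pearson r = -0.80, given as a description), and the part of the balance in its group differences was not tested.

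**Figure D2:**
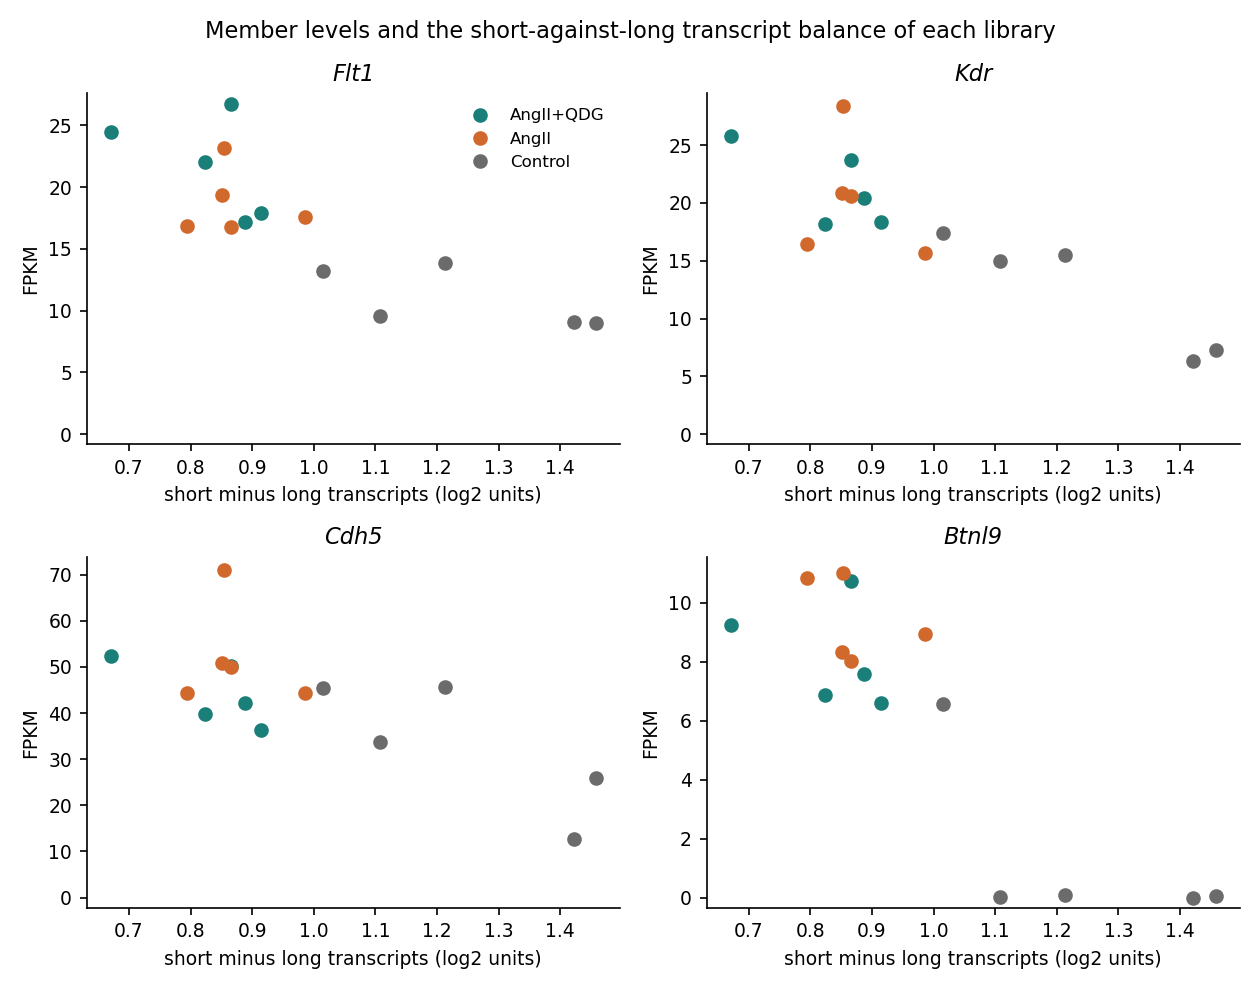
Gene level (FPKM, y axis) of Flt1, Kdr, Cdh5 and Btnl9 against the short-against-long transcript balance of the library (log2 units, x axis), 1 point per library, coloured by group. Control libraries stand at 1.02 to 1.46 log2 units and those of the other groups at or below 0.986, so balance and group cannot be told apart over much of the range.

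The Flt1 level was the sum of these 2 transcripts. The short Flt1-203 had 8.27, 6.85, 6.10, 11.1 and 10.3 FPKM in AngII+QDG hearts, 5.66, 5.76, 6.16, 7.07 and 8.03 FPKM in AngII hearts, and 2.53, 3.16, 2.91, 3.55 and 2.92 FPKM in Control hearts. The full-length Flt1-202 had 16.1, 11.04, 11.1, 15.6 and 11.7 FPKM in AngII+QDG hearts, 11.1, 11.1, 11.4, 12.3 and 15.1 FPKM in AngII hearts, and 7.04, 10.7, 6.09, 9.63 and 6.15 FPKM in Control hearts. Neither AngII group overlapped with Control for either transcript. Flt1-203 rose by 0.90 ± 0.17 log2 units in AngII against Control (limma, adjusted p = 0.0181) and by 1.22 ± 0.17 in AngII+QDG against Control (limma, adjusted p = 0.0025), over 28862 and 28475 transcripts tested. Flt1-202 rose by 0.68 ± 0.17 in AngII+QDG against Control (limma, adjusted p = 0.0333) and missed the threshold in AngII against Control (0.59 ± 0.17, limma adjusted p = 0.0766). The Flt1-203 call in AngII against Control ended with quantile normalization (0.70, limma adjusted p = 0.0509), median scaling (0.70, limma adjusted p = 0.0532), the length trend removed (0.53, limma adjusted p = 0.108) and without Control 3 and Control 5 (0.88, limma adjusted p = 0.103). In AngII+QDG against Control the Flt1-203 call was made under these 4 settings (limma adjusted p = 0.00769 to 0.0196), while the Flt1-202 call ended with median scaling, the length trend removed and without Control 3 and Control 5 (limma adjusted p = 0.0758, 0.251 and 0.17). With the balance as a covariate no Flt1 transcript was called.

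Flt1-203 made up 33.9, 38.3, 35.5, 41.6 and 46.9% of Flt1 in AngII+QDG hearts, 33.8, 34.2, 35.0, 36.6 and 34.7% in AngII hearts, and 26.4, 22.9, 32.4, 26.9 and 32.2% in Control hearts. The share was higher in every heart of both AngII groups than in every Control heart. The mean difference was 6.69 percentage points for AngII minus Control and 11.1 for AngII+QDG minus Control. Each gave p = 0.00794 in an exact two-sided permutation test, the smallest that 252 arrangements of 5 against 5 can give, and an adjusted p of 0.0952 over 48 share tests, so no share passed the threshold. AngII+QDG minus AngII was 4.38 points (exact two-sided permutation test, p = 0.0873, adjusted p = 0.175). Leaving out Control 3 and Control 5 widened the differences from Control to 9.43 and 13.8 points for AngII and AngII+QDG. The tool that divided fragments of the shared exons between the transcripts is not named in the sources.

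**Figure D3:**
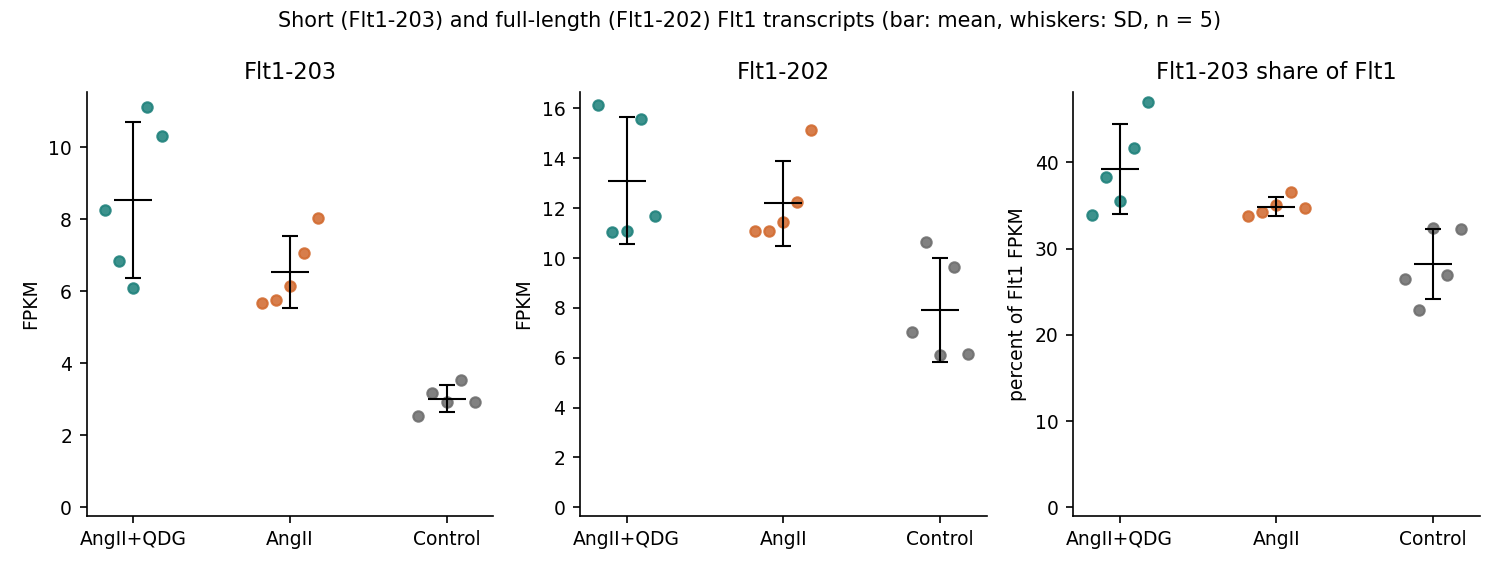
Level of Flt1-203 and of Flt1-202 (FPKM, y axis from 0) and the share of Flt1-203 in the summed Flt1 level (percent, y axis from 0), with 1 point per heart, groups from left to right AngII+QDG, AngII and Control, and the mean and SD of 5 hearts. Flt1-203 lies between 2.53 and 3.55 FPKM in Control and at or above 5.66 FPKM in the other hearts.

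The angiopoietin receptor Tek and its partner Tie1 differed from Control in opposite directions by their estimates. Tek had 13.5, 8.07, 10.3, 12.2 and 11.9 FPKM in AngII+QDG hearts, 11.7, 10.8, 9.21, 11.5 and 8.98 FPKM in AngII hearts, and 7.33, 7.99, 7.93, 8.73 and 4.82 FPKM in Control hearts. The AngII hearts all lay above the Control hearts, and AngII+QDG 2 fell within the Control range. Tek rose in AngII+QDG against Control (0.55 ± 0.16 log2 units, limma adjusted p = 0.0272) and missed the threshold in AngII against Control (0.47 ± 0.16, limma adjusted p = 0.0632). Under quantile and median scaling the AngII+QDG estimate was 0.36 and 0.29 and its call was lost (limma adjusted p = 0.0676 and 0.11), as it was without AngII+QDG 1, 4 or 5 (limma adjusted p = 0.0594 to 0.0751). The call also ended without Control 3 and Control 5 (0.42, limma adjusted p = 0.089) and with the length trend removed (0.20, limma adjusted p = 0.304). With the balance as a covariate the estimate was 0.096 (limma adjusted p = 0.921).

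Tie1 had 15.6, 11.4, 30.6, 15.8 and 13.2 FPKM in AngII+QDG hearts, 17.98, 35.5, 18.3, 21.3 and 18.9 FPKM in AngII hearts, and 29.0, 41.8, 29.7, 16.4 and 26.6 FPKM in Control hearts. AngII+QDG 3 and AngII 2 lay far above the rest of their groups, Control 4 was the lowest Control heart, and all groups overlapped. The estimates were -0.72 ± 0.27 log2 units in AngII+QDG against Control (limma, adjusted p = 0.0769) and -0.33 ± 0.27 in AngII against Control (limma, adjusted p = 0.415). The estimate for AngII+QDG against Control passed the threshold with median scaling (-0.98, limma adjusted p = 0.0291) and after removal of the length trend (-1.05, limma adjusted p = 0.0353), and likewise without AngII+QDG 3 (-0.94, limma adjusted p = 0.0208) or without Control 4 (-0.90, limma adjusted p = 0.0243). It did not pass with quantile normalization (-0.82, limma adjusted p = 0.0629) or without Control 3 and Control 5 (-0.70, limma adjusted p = 0.196). Nor did it pass with the balance as a covariate (-0.54, limma adjusted p = 0.765). The ratio of Tek to Tie1, with both levels per length, ran from 0.336 to 0.905 in AngII+QDG hearts, 0.305 to 0.652 in AngII hearts and 0.181 to 0.531 in Control hearts, with Control 4 the highest Control heart.

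Which transcripts carried Tek and Tie1 also differed between hearts. Tek-201 made up 81.3 to 94.2% of Tek in AngII+QDG hearts, 80.1 to 88.4% in AngII hearts and 14.5 to 85.7% in Control hearts. The lowest share belongs to Control 5, where Tek-201 had 0.700 FPKM and Tek-203 had 4.12 FPKM. Tie1-203, whose coding part ends after 1941 nt against 3402 nt in Tie1-201, had 4.24 to 18.2 FPKM in AngII+QDG hearts, 7.51 to 10.8 FPKM in AngII hearts and 0.918 to 27.9 FPKM in Control hearts. No Tek or Tie1 transcript was called in any comparison.

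Endoglin, the co-receptor for BMP ligands, had 18.1, 28.8, 20.5, 47.5 and 32.4 FPKM in AngII+QDG hearts, 18.003, 14.1, 17.9, 19.1 and 24.0 FPKM in AngII hearts, and 18.7, 63.1, 15.2, 18.1 and 51.1 FPKM in Control hearts. The AngII hearts lay close together, while Control 2 and Control 5 were the highest of the 15 hearts and the other 3 Control hearts were among the lower ones. No comparison was called: the estimates were -0.58 ± 0.37 log2 units in AngII against Control and -0.01 ± 0.37 in AngII+QDG against Control (limma, adjusted p = 0.293 and 0.988).

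Most of the spread of Eng lay in Eng-201. It had 2.75, 11.5, 0.307, 26.5 and 10.7 FPKM in AngII+QDG hearts, 0.124, 0.0531, 1.38, 1.09 and 1.38 FPKM in AngII hearts, and 0.921, 36.1, 0.0649, 0.601 and 36.4 FPKM in Control hearts. Eng-202, whose coding end is printed above, stayed within a narrower range of 11.8 to 18.8, 10.2 to 17.7 and 9.27 to 21.9 FPKM in the AngII+QDG, AngII and Control hearts. Eng-201 thus reached 10 FPKM or more in 3 AngII+QDG hearts and 2 Control hearts and stayed at or below 1.38 FPKM in every AngII heart. Its share of Eng differed by 25.0 percentage points for AngII+QDG minus AngII (exact two-sided permutation test, p = 0.0317, adjusted p = 0.152 over 48 share tests), which does not pass. These transcripts share most of their sequence, so their split is uncertain.

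**Figure D4:**
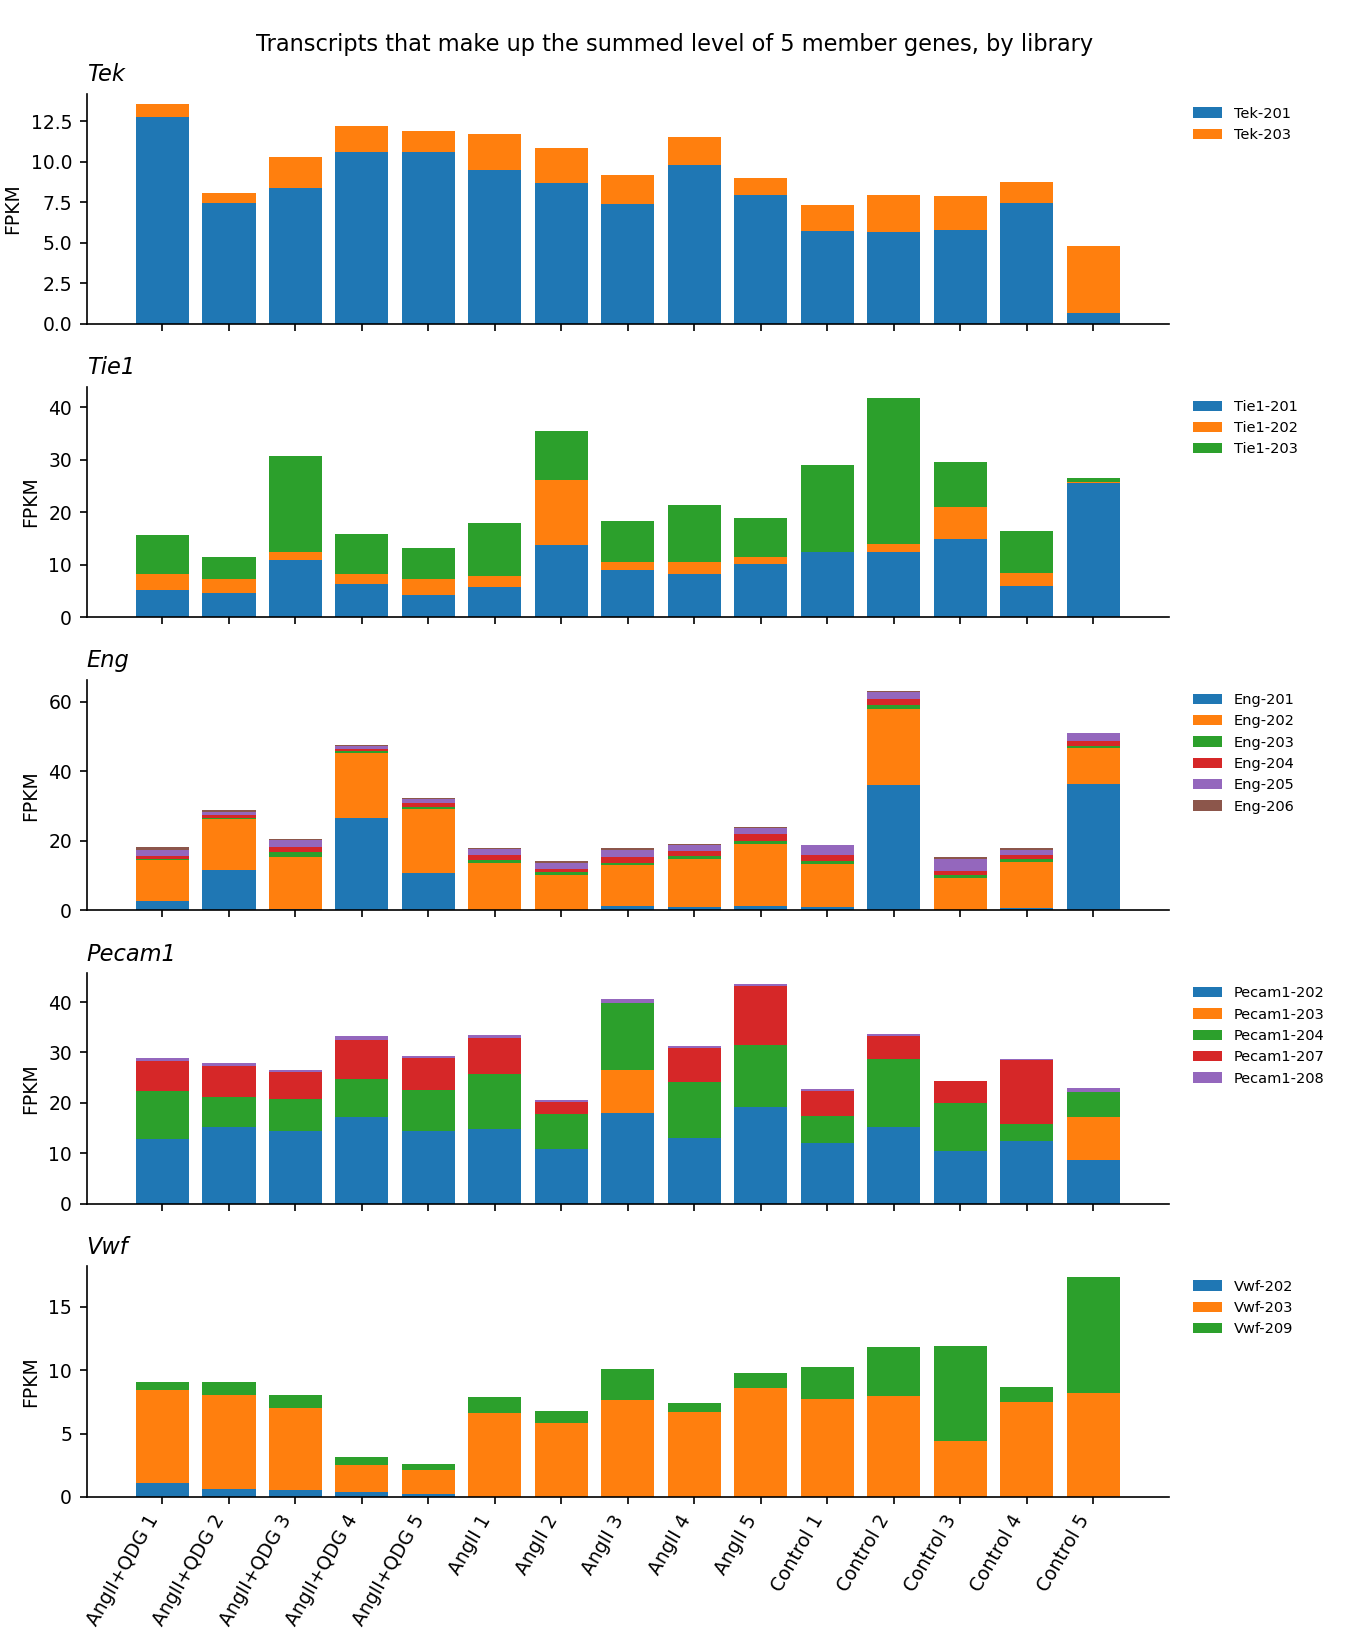
Stacked FPKM (y axis, from 0) of each listed transcript of Tek, Tie1, Eng, Pecam1 and Vwf in every library (x axis, AngII+QDG, AngII and Control from left to right). Eng-201 stands at 36.1 and 36.4 FPKM in Control 2 and Control 5, Pecam1-203 appears in AngII 3 and Control 5 in place of Pecam1-207, and Vwf-209 is highest in Control 3 and Control 5.

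Of the junction genes, Cdh5 (VE-cadherin, the adhesion protein of endothelial adherens junctions) had 52.4, 36.4, 42.3, 50.2 and 39.7 FPKM in AngII+QDG hearts, 49.9, 44.3, 44.3, 50.9 and 70.9 FPKM in AngII hearts, and 33.7, 45.7, 25.8, 45.4 and 12.8 FPKM in Control hearts. Control 5 was the lowest and AngII 5 the highest of the 15, and the groups overlapped. The estimates of 0.76 ± 0.27 log2 units in AngII against Control and 0.54 ± 0.27 in AngII+QDG against Control missed the threshold (limma, adjusted p = 0.0765 and 0.181). With the balance as a covariate both turned below 0 (-0.14 and -0.46).

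Pecam1 (CD31, an adhesion protein of endothelial contacts that platelets and leukocytes also carry) had 28.8, 27.8, 26.4, 33.3 and 29.4 FPKM in AngII+QDG hearts, 33.5, 20.5, 40.5, 31.4 and 43.5 FPKM in AngII hearts, and 22.8, 33.7, 24.4, 28.8 and 23.0 FPKM in Control hearts. The AngII+QDG and Control hearts all lay inside the AngII range. The estimates were 0.31 ± 0.17 log2 units in AngII against Control and 0.14 ± 0.17 in AngII+QDG against Control (limma, adjusted p = 0.229 and 0.601), the second of which changed sign with median scaling. In AngII 3 and Control 5, Pecam1-203 was listed at 8.51 and 8.44 FPKM and Pecam1-207 at 0. In the other 13 libraries Pecam1-203 had at most 0.00599 FPKM, worth 1 fragment, and Pecam1-207 had 2.39 to 12.7 FPKM.

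Vwf fell in AngII+QDG against Control by its summed level. It had 9.10, 9.04, 8.06, 3.15 and 2.63 FPKM in AngII+QDG hearts, 7.87, 6.76, 10.1, 7.39 and 9.80 FPKM in AngII hearts, and 10.2, 11.8, 11.9, 8.70 and 17.3 FPKM in Control hearts. AngII+QDG 4 and AngII+QDG 5 were far below the other 13 hearts, and the 2 groups overlapped through Control 4. The estimate was -0.92 ± 0.29 log2 units (limma, adjusted p = 0.0376), and it no longer passed without AngII+QDG 4, without AngII+QDG 5, or without Control 2, 3 or 5 (limma, adjusted p = 0.0636 to 0.0884), or with limma voom on recovered fragments (-0.73, adjusted p = 0.175). The fall was called with quantile normalization, median scaling and the length trend removed (-1.09, -1.18 and -1.36, limma adjusted p = 0.0319, 0.0215 and 0.0191). Its call ended with the balance as a covariate (-0.47, limma adjusted p = 0.802) and without Control 3 and Control 5 (-0.73, limma adjusted p = 0.173). In AngII against Control the estimate was -0.45 ± 0.29 (limma, adjusted p = 0.295).

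The fall of Vwf was called for a short transcript and not for the long one. Vwf-209, a non-coding transcript of 2 exons and 456 nt near the end of the gene, had 0.670, 1.03, 1.03, 0.595 and 0.479 FPKM in AngII+QDG hearts, 1.24, 0.896, 2.50, 0.717 and 1.20 FPKM in AngII hearts, and 2.50, 3.87, 7.50, 1.23 and 9.15 FPKM in Control hearts. All AngII+QDG hearts lay below all Control hearts, and the 2 highest were again Control 3 and Control 5. It fell by 1.53 log2 units in AngII+QDG against Control (SE 0.35; limma, adjusted p = 0.0223) and with the balance as a covariate the estimate was 0.11 (limma, adjusted p = 0.97), while without Control 3 and Control 5 it was -0.95 (limma, adjusted p = 0.103). Vwf-203, which codes for the whole protein over 52 exons and 8834 nt, had 7.30, 7.35, 6.49, 2.17 and 1.96 FPKM in AngII+QDG hearts, 6.63, 5.87, 7.63, 6.68 and 8.60 FPKM in AngII hearts, and 7.72, 7.97, 4.44, 7.47 and 8.16 FPKM in Control hearts. Its estimate of -0.55 ± 0.30 log2 units in AngII+QDG against Control did not pass (limma, adjusted p = 0.287). Vwf-202, which was listed in the AngII+QDG tables alone, adds 0.194 to 1.13 FPKM to the summed Vwf level of those hearts.

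Vwf is also made by megakaryocytes. Of 10 platelet and megakaryocyte markers 5 were listed, 0 of the 5 were called in any comparison, and none of them was at 0 in a library. Under quantile or median scaling, or with the length trend removed, 1 of them was lower in AngII+QDG against Control. Their summed level was 20.5 to 29.8 FPKM in AngII+QDG hearts, 20.8 to 37.3 FPKM in AngII hearts and 19.1 to 45.3 FPKM in Control hearts, and their part in the Vwf values was not tested.

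Btnl9 had the largest difference among the members. It had 9.24, 6.597, 7.59, 10.7 and 6.89 FPKM in AngII+QDG hearts, 8.02, 10.8, 8.94, 8.33 and 11.01 FPKM in AngII hearts, and 0.00578, 0.0800, 0.0673 and 6.57 FPKM in Control 1 to Control 4, and it was listed at 0 in Control 5. In recovered fragments the Control libraries held 2, 28, 24, 2525 and 0, against 2392 to 4546 in the other 10. Control 4 therefore held Btnl9 at nearly the level of the lowest AngII+QDG heart, and the other 4 Control hearts held almost none. Btnl9 rose by 2.74 ± 0.44 log2 units in AngII against Control and by 2.56 ± 0.44 in AngII+QDG against Control (limma, adjusted p = 0.00747 and 0.00366). The first call ended without Control 3 and Control 5 (2.36, limma adjusted p = 0.0503), and both ended with the balance as a covariate (1.46 and 1.14, limma adjusted p = 0.89 and 0.674). With limma voom on recovered fragments the estimates were 7.48 and 7.25 (adjusted p = 0.00925 and 0.00416), values that depend on the offset added to the near-empty Control libraries.

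Control values this low were uncommon among genes that were well expressed in both AngII groups. Of 4243 genes with at least 5 FPKM in all 10 AngII+QDG and AngII hearts, 59 had under 0.1 FPKM in at least 1 Control heart, and 54 had so in Control 5. Btnl9 was the 1 gene under 0.1 FPKM in Control 1, 2, 3 and 5 with at least 5 FPKM in Control 4. These limits follow the values of Btnl9 itself, so its own match was fixed in advance. Control 4 was also the Control library with the lowest balance and the fewest transcripts at 0. Btnl9-201 was the 1 listed transcript of the 5 annotated for this gene, and reads on the other 4 were not analysed here.

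Counted together, 2 of 9 members were called in AngII against Control, both higher, where 13.4% of all tested genes were called (11.9% higher and 1.48% lower). Hearts of the groups did not overlap for 3 members, Flt1, Tek and Btnl9, all higher, where 10.1% of all genes were higher without overlap. Members called in AngII+QDG against Control numbered 5 of 9, with Flt1, Kdr, Tek and Btnl9 higher and Vwf lower, where 19.4% of all genes were called (16% higher and 3.31% lower). There the hearts did not overlap for Flt1, Kdr and Btnl9, all higher, where 12.8% of all genes were higher without overlap. The members' medians were 0.47 and 0.54 log2 units in these comparisons, against 0.20 and 0.18 for all genes. The comparisons share the Control mice. Of 21 member transcripts, 2 were called in AngII against Control, both higher, where 2.53% of all transcripts were called (2.2% higher and 0.326% lower) and 6.24% were higher and 0.97% lower without overlap. Transcripts called in AngII+QDG against Control numbered 4, of which 3 were higher and 1 lower, where 6.91% were called (5.93% higher and 0.976% lower) and 7.68% were higher and 1.28% lower without overlap.

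The count of members called depended on single Control libraries and, in AngII+QDG against Control, also on single AngII+QDG libraries. In AngII against Control it was 5 without Control 4, adding Kdr, Tek and Cdh5 (limma adjusted p = 0.0248, 0.0399 and 0.0348), and 0 without Control 3 and Control 5 or with the balance as a covariate. For AngII+QDG against Control it was 2 without AngII+QDG 4, 3 without AngII+QDG 1, AngII+QDG 5, Control 3 or Control 5, 2 without Control 3 and Control 5 together (Flt1 and Btnl9), and 0 with the balance as a covariate. Without Control 4 the count there was 6, adding Tie1.

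Between AngII+QDG and AngII hearts the levels of every member overlapped, where 0.595% of all genes were higher and 0.799% lower without overlap. Here 0 of 9 members were called, 0 had an unadjusted p under 0.05, and 0 changed with limma voom on recovered fragments; of all genes 0% were called and 4.71% had an unadjusted p under 0.05. The adjusted p was 0.998 for each member (limma). The estimates and their 95% intervals were 0.19 (-0.15 to 0.52) log2 units for Flt1, 0.08 (-0.46 to 0.62) for Kdr and 0.08 (-0.26 to 0.42) for Tek. They were -0.39 (-0.97 to 0.20) for Tie1, 0.57 (-0.21 to 1.36) for Eng, -0.22 (-0.81 to 0.36) for Cdh5 and -0.17 (-0.54 to 0.20) for Pecam1. For Vwf the estimate was -0.47 (-1.08 to 0.15) and for Btnl9 -0.19 (-1.14 to 0.76). The intervals of Flt1, Kdr, Tek, Cdh5, Pecam1 and, only just, Tie1 exclude a difference of 1 log2 unit in either direction. Those of Eng, Vwf and Btnl9 do not. Of 21 member transcripts 0 were called by limma, where 0.0105% of all were (0.00351% higher and 0.00702% lower), and 0 had an unadjusted p under 0.05, where 4.66% of all did. None was without overlap, where 0.457% were higher and 0.685% lower.

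**Figure D5:**
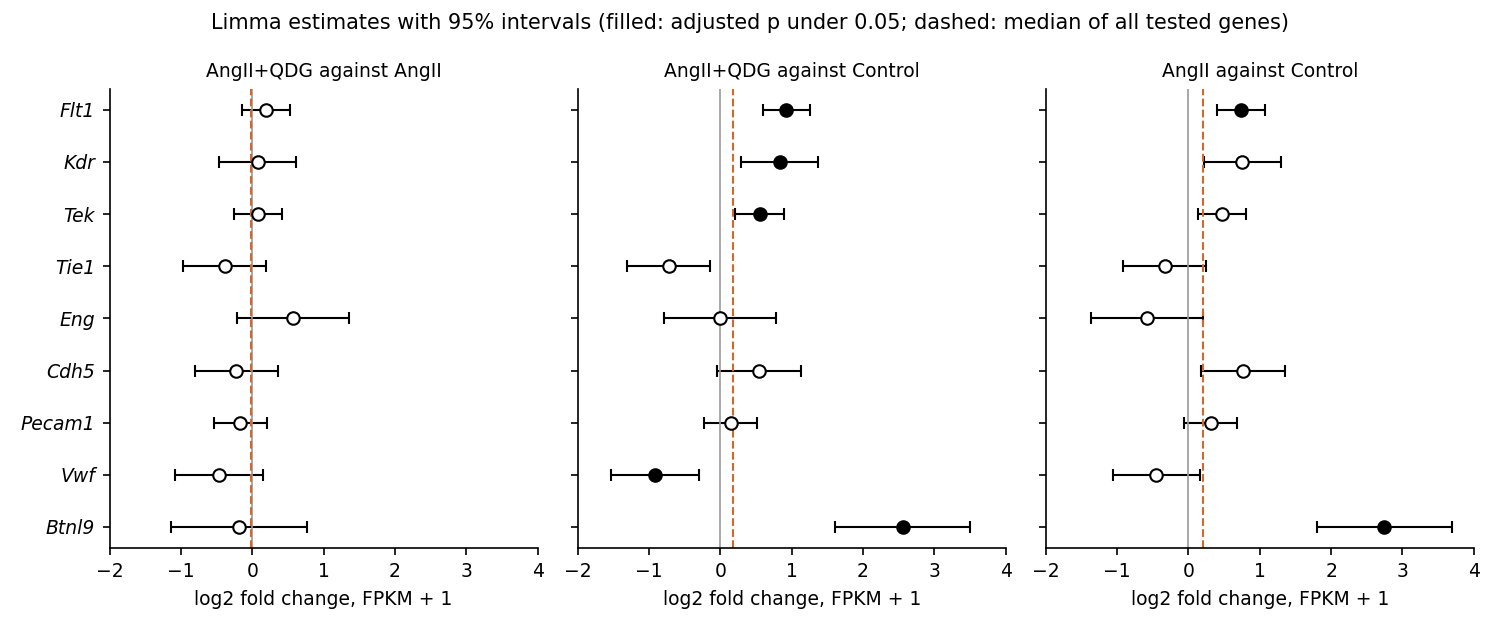
Limma log2 fold change of FPKM + 1 (x axis) with its 95% interval for each member (y axis) in AngII+QDG against AngII, AngII+QDG against Control and AngII against Control, from left to right. Filled points have an adjusted p under 0.05, the grey line is 0 and the dashed line is the median of all tested genes; filled points are 0 in the first panel, 5 in the second and 2 in the third.

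FPKM is a value per length, so members can be ranked within a group. Cdh5 was highest in AngII+QDG hearts (44.2 ± 6.86 FPKM) and AngII hearts (52.1 ± 10.97 FPKM), and in Control hearts it averaged 32.7 ± 13.9 FPKM beside Eng at 33.3 ± 22.2 FPKM (SD, n = 5 each). Vwf was lowest in AngII+QDG and AngII hearts (6.40 ± 3.23 and 8.39 ± 1.49 FPKM), and Btnl9 was lowest in Control hearts by its median. Neighbours in the order were mostly closer than their spread: ranges of mean ± SD were apart only between Pecam1 and Flt1 in AngII+QDG hearts, between Eng and Tek in AngII hearts, and between Pecam1 and Kdr and between Tek and Btnl9 in Control hearts. Each Control heart had more Tek than Btnl9.

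Within groups the members did not vary as 1 block. With each group centred, Pearson correlations over the 15 libraries, given as a description, were highest for Kdr with Cdh5 (0.91), Flt1 with Cdh5 (0.73) and Flt1 with Kdr (0.72). Tie1 lay between -0.41 and 0.13 with every other member, and Vwf between -0.55 and 0.13. The 5 other genes closest to the mean of the standardized members were Cdc42ep1 (0.96), Sema3g (0.96), Notch1 (0.95), Ltbr (0.95) and Git1 (0.93), out of 9437 genes whose mean reached 1 FPKM. All these points share their library and its balance, with which the mean of the members correlated at -0.57.

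The ligands and co-receptors of these receptors were read from a list of 14 genes, of which 12 were tested. Vegfa, the main ligand of Flt1 and Kdr, had 57.1, 43.2, 48.9, 40.3 and 36.4 FPKM in AngII+QDG hearts, 51.1, 50.05, 44.6, 52.2 and 52.0 FPKM in AngII hearts, and 29.5, 26.4, 19.2, 36.7 and 12.5 FPKM in Control hearts. All AngII hearts lay above all Control hearts and AngII+QDG 5 lay just below Control 4. For AngII against Control, 3 of 12 rose and 0 fell: Vegfa by 1.06 ± 0.22 log2 units and the co-receptors Nrp1 by 0.65 ± 0.13 and Nrp2 by 1.07 ± 0.23 (limma, adjusted p = 0.0149, 0.0133 and 0.0163). These 3 were among 4 of 12 that rose in AngII+QDG against Control, with the heparan sulphate proteoglycan Sdc2 (0.43 ± 0.13, limma adjusted p = 0.0319) as the other. None of 12 was called in AngII+QDG against AngII, with the smallest p for Pgf (-0.45 ± 0.17) and Vegfc (-0.40 ± 0.16), ligands of Flt1 and of the lymphatic receptor Flt4 (limma, adjusted p = 0.911 and 0.929). The list's median in AngII against Control was 0.29, against 0.20 for all genes, and the count was 2 under quantile or median scaling and 1 without Control 3 and Control 5. For AngII+QDG against Control, 3 rose and 1 fell under quantile or median scaling, and 2 rose without Control 3 and Control 5.

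Among other genes that mark endothelium most were not called, as was so for all tested genes. Of all genes 11.9% were called higher and 1.48% lower in AngII against Control. In AngII+QDG against Control these shares were 16% and 3.31%, and they stand beside every list count given here. Of 32 pan-endothelial genes, all tested, 5 rose in AngII against Control and 0 fell, among them S1pr1, the sphingosine phosphate receptor (29.4 ± 5.7 FPKM in AngII hearts and 16.8 ± 1.8 FPKM in Control hearts, a rise of 0.75 log2 units, limma adjusted p = 0.0131) and Ptprb, the phosphatase that acts on Tek (0.96, limma adjusted p = 0.0217). Cav1, Adgrl4 and Cd34 were the others (limma, adjusted p = 0.0469, 0.048 and 0.0498). The count of 5 was 2 with quantile normalization, 1 with median scaling and 0 with the length trend removed. S1pr1 and Ptprb also rose in AngII+QDG against Control, and 1 of the 32, the tight junction claudin Cldn5, fell (-0.71 ± 0.24, limma adjusted p = 0.048), while with median scaling 1 rose and 3 fell. Without Control 3 and Control 5 these counts were 0 in AngII against Control and 1 higher in AngII+QDG against Control. The summed level of the 32 genes was 1526 to 2216 FPKM in AngII+QDG hearts, 1742 to 2374 FPKM in AngII hearts and 1370 to 2127 FPKM in Control hearts, ranges that overlap, and 29 of the 32 had at least 1 FPKM in all libraries.

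In the Notch pathway, which restrains sprouting next to VEGF signalling, 6 of 12 genes rose in AngII against Control and 0 fell, and 2 rose under quantile or median scaling. Notch4, the Notch receptor most restricted to endothelium, had 6.89 ± 0.89 FPKM in AngII hearts and 2.35 ± 1.7 FPKM in Control hearts (1.40 ± 0.29 log2 units, limma adjusted p = 0.0163). The Notch target Hey1 rose by 1.58 ± 0.37 (limma, adjusted p = 0.022) and was listed at 0 in Control 3 and Control 5, and Notch1 and Jag1 rose by 0.73 and 0.79 (limma, adjusted p = 0.0288 and 0.032). The count in AngII+QDG against Control was 4 of 12, and without Control 3 and Control 5 it was 1 in either comparison.

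Among 15 tested genes of the endoglin and BMP receptor pathway 4 rose in AngII against Control and 0 fell: the receptors Acvr2a (0.59 ± 0.15 log2 units) and Tgfbr2 (0.57 ± 0.16), the signal carrier Smad1 (0.63 ± 0.16) and the inhibitor Smad7 (0.68 ± 0.19), with limma adjusted p between 0.025 and 0.0375. In that comparison none of these 15 was called under quantile or median scaling or without Control 3 and Control 5. Of these 4, Acvr2a, Tgfbr2 and Smad7 also rose in AngII+QDG against Control.

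Partners of Cdh5 at cell junctions gave 5 of 11 tested genes higher in AngII against Control and 7 of 11 in AngII+QDG against Control, with 0 lower in each. The tight junction scaffold Tjp1 had 3.58 to 7.17 FPKM in AngII+QDG hearts, 4.43 to 5.88 FPKM in AngII hearts and 0.194 to 0.805 FPKM in Control 1 to Control 4, and was listed at 0 in Control 5 (2.16 ± 0.18 log2 units in AngII against Control, limma adjusted p = 5.84e-05). Vcl, Ctnnd1 and Ctnnb1, which link cadherins to the cytoskeleton, rose by 1.51, 0.83 and 0.58 (limma, adjusted p = 0.00747, 0.0131 and 0.0254). Heart muscle cells also use these 4 proteins at their contacts. With median scaling the counts were 3 and 4, with the length trend removed 2 and 3, and without Control 3 and Control 5 they were 1 and 4. Both were 0 with the balance as a covariate.

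Of 11 tested genes of endothelial activation, 2 rose in AngII against Control and 0 fell. Among them the thrombin cofactor Thbd rose by 0.75 ± 0.19 log2 units (limma, adjusted p = 0.0269). It also rose in AngII+QDG against Control (0.61, limma adjusted p = 0.0384). The count was 1 in either comparison under quantile or median scaling. Of 19 endothelial transcription factors 2 rose in AngII against Control, Sox7 (0.78 ± 0.19) and Epas1 (0.42 ± 0.12), with limma adjusted p = 0.0224 and 0.0408, and neither was called under quantile or median scaling in that comparison, where 1 other gene of the list was lower. In AngII+QDG against Control, 3 of the 19 rose, Sox7, Epas1 and Foxo1, and 1, Klf2, fell. The list medians in AngII against Control were 0.31 log2 units for the pan-endothelial genes, 0.62 for the Notch pathway, 0.42 for the endoglin and BMP pathway, 0.55 for the junction partners, 0.27 for activation and 0.35 for the transcription factors, against 0.20 for all genes. Of these 7 lists 0 genes were called in AngII+QDG against AngII. With the balance as a covariate 0 genes of the 7 lists were called in any comparison.

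Markers of other cells were counted in the same way. Of all tested genes 13.4% were called in AngII against Control and 19.4% in AngII+QDG against Control. For AngII against Control, 1 of 9 listed cardiomyocyte markers rose (Ryr2), 2 of 10 of fibroblasts (Ddr2 and Mfap5), 2 of 10 of pericytes and smooth muscle (Rgs5 and Notch3), 1 of 9 of macrophages (Cd163), 1 of 4 of lymphatic endothelium (Lyve1), and 0 of 4 of the endocardium and 0 of 5 of red blood cells, with 0 lower in each list. In AngII+QDG against Control 2 of 9 macrophage markers rose (Cd163 and Mrc1) and 0 fell, with a list median of -0.15 log2 units, and with median scaling 1 rose and 3 fell. There 2 of 10 fibroblast markers (Pdgfra and Lum) and 1 of 4 lymphatic markers (Lyve1) also rose, while 1 of 10 pericyte and smooth muscle markers (Vtn) and 1 of 5 red blood cell genes (Hba-a2, which may share reads with its near-identical copy) fell. The summed pericyte and smooth muscle markers were 209 to 333 FPKM in AngII+QDG hearts, 275 to 414 FPKM in AngII hearts and 175 to 302 FPKM in Control hearts, with Pdgfrb listed at 0 in 2 Control libraries. The summed cardiomyocyte markers, of which Ttn was not listed, were 30083 to 47407, 34608 to 41761 and 33383 to 52901 FPKM in the AngII+QDG, AngII and Control hearts. With the balance as a covariate 0 of these markers were called in any comparison. The part of these cell types in the members' values was not tested.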

How the data were processed

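The authors deposited 1 table per library with 1 value per transcript, which the values show to be FPKM: they are not whole, sum to different totals, and sum to nearly the same total once multiplied by transcript length. The submitters' processing notes name the build GRCm38 and limma; the aligner and quantifier are not named there. The 24789 Ensembl transcripts were matched to GENCODE M21 (24756 named), the 8634 assembled ones were left out, and transcripts were summed per gene. Depth was recovered from the steps of low values (97.0 to 97.2% of values whole within 0.1). No 2 libraries were identical.

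Log2(FPKM + 1) was fitted with limma 3.58.1 (R 4.3.3) over all 15 libraries with 12 residual degrees of freedom, keeping genes that reached 0.5 FPKM in 5 or more libraries, with Benjamini-Hochberg adjustment over all genes tested. The same was done for transcripts. Transcript shares were compared with exact two-sided permutation tests (scipy 1.17.1). On simulated data with 12267 genes, log2 changes of 1 were recovered at 60%, 66% and 67% and of 2 at 91%, 96% and 90% in AngII against Control, AngII+QDG against AngII and AngII+QDG against Control. Named were all members, the 4 genes of each list with the smallest p in AngII against Control, the 2 with the smallest p in AngII+QDG against AngII, and the 5 genes most alike; other genes named beside a small count were chosen after their values were seen. Some genes that this rule would name are not reported here. Members and lists were chosen with earlier results of these data known. Alternatives covered the pseudocount, filter, scaling, transcript length, variance model, recovered fragments, single libraries and the balance of short and long transcripts.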

Additional observations from a re-analysis of the deposited data

Results flagged for a closer look

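In 14 of 88 groups of 5 libraries tested, 1 library stood far from the other 4 for a gene or transcript, 3 in AngII+QDG, 7 in AngII and 4 in Control. The rule flags about 1 in 20 groups of independent, normally distributed values. Genes were counted beside their own transcripts, and values near 0 were included, so an excess over that rate was not tested. Among genes, Tie1 was 30.6 FPKM in AngII+QDG 3 (other AngII+QDG hearts 11.4 to 15.8) and 35.5 FPKM in AngII 2 (other AngII hearts 17.98 to 21.3). Cdh5 was 70.9 FPKM in AngII 5 (others 44.3 to 50.9), and Btnl9 was 6.57 FPKM in Control 4 (others listed at 0 to 0.0800).

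Among transcripts, Tie1-203 was 18.2 FPKM in AngII+QDG 3, Tie1-202 was 12.4 FPKM in AngII 2, Flt1-202 was 15.1 FPKM in AngII 5, and Vwf-203 was 4.44 FPKM in Control 3, below the other Control hearts. Tek-201 was 0.700 FPKM in Control 5, also below its group. Eng-203 was 1.32 FPKM in AngII+QDG 3, above its group, and 0.497 FPKM in AngII 3, below its group, and Eng-206 was 0.630 FPKM in AngII 3. Pecam1-203 was 8.51 FPKM in AngII 3 and 8.44 FPKM in Control 5, where Pecam1-207 was listed at 0. Their causes were not tested.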

How the results depend on the processing

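Of 9 members, 2 were called in AngII against Control, 1 after removal of the length trend, 0 with the transcript length balance as covariate (the covariate below), 0 without Control 3 and Control 5, and 2 to 5 without 1 library (5 without Control 4). In AngII+QDG against Control, 5 were called, 2 in a fit of those groups only, 3 with sample weights, 0 with the covariate, 2 without Control 3 and Control 5, and 2 to 6 without 1 library. Of 21 transcripts, 2 were called in AngII against Control, 1 with quantile normalization, median scaling, the length trend removed or a fit of the 2 groups only, 0 with the covariate, 0 without Control 3 and Control 5, and 1 to 4 without 1 library (1 without AngII 4, 4 without Control 4). In AngII+QDG against Control, 4 were called, 2 in the fit of those groups only, 0 with the covariate, 1 without Control 3 and Control 5, and 2 to 7 without 1 library (2 without AngII+QDG 1, AngII+QDG 5 or Control 3, 7 without Control 4). No member, transcript or share was called in AngII+QDG against AngII under any alternative run, and no share in any comparison. The share tests could hardly make a call. For Flt1-203 the smallest exact two-sided permutation p for 5 against 5, 0.00794, gave an adjusted p of 0.0952. With fewer libraries the smallest p is higher (0.0357 for Flt1-203 in AngII against Control without Control 3 and Control 5, same test).

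Signs turned in these cases. With the covariate, Kdr was -0.22 in AngII against Control, -0.24 in AngII+QDG against Control and -0.021 in AngII+QDG against AngII, Cdh5 was -0.14 and -0.46 in the first 2 comparisons, and Eng was 0.52 in AngII+QDG against Control. Kdr in AngII+QDG against AngII ran from -0.0041 (without AngII 3) to 0.20 without 1 library. Eng in AngII+QDG against Control was 0.0049 without mitochondrial genes, 0.00081 with sample weights and -0.22 to 0.28 without 1 library. Pecam1 in AngII+QDG against Control was -0.12 with median scaling and -0.13 with the length trend removed. The cause was not tested.

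The replicate numbers were not stated to pair mice, and same-numbered libraries deviated together at correlations of -0.096 to 0.087. With replicate number as a block, 2, 0 and 4 members were called in AngII against Control, AngII+QDG against AngII and AngII+QDG against Control. All genes called in AngII against Control numbered 1638, 819 with quantile normalization, 344 with the length trend removed, 97 without Control 3 and Control 5, and 0 with the covariate. Depth does not limit the members, all above 2 FPKM in the AngII groups, but Btnl9 in Control and Vwf-209 rest on few fragments.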

Other observations

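Klf2 and Klf4, the 2 endothelial transcription factors with the smallest p in AngII+QDG against AngII, did not pass the test there. Klf2, a transcription factor induced by laminar flow, had 32.5, 25.7, 28.7, 35.5 and 31.97 FPKM in AngII+QDG hearts, 38.3, 38.2, 56.7, 63.9 and 65.2 FPKM in AngII hearts, and 37.2, 68.1, 48.3, 51.6 and 47.4 FPKM in Control hearts. Every AngII+QDG heart lay below every heart of the other groups. Klf2 fell in AngII+QDG against Control (-0.67 ± 0.18 log2 units, limma adjusted p = 0.0197) and did not pass in AngII+QDG against AngII (-0.71 ± 0.18, limma adjusted p = 0.668). Its relative Klf4 averaged 5.98 ± 4.1 FPKM in AngII+QDG hearts and 14.2 ± 4.2 FPKM in AngII hearts (SD, n = 5 each), a difference that also did not pass (-1.25 ± 0.39, limma adjusted p = 0.743).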
